A study of Mus musculus with 15 samples.

Results

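The 10 genes described here are parts of the Notch pathway: the receptors Notch1, Notch2 and Notch3, the ligands Dll1, Dll3 and Jag1, and the transcription factor genes Hes1, Hes5, Hes6 and Hey1. They were chosen by name, with earlier results of these data known, as 10 of the 27803 gene names in the tables. All 10 were found. In Notch signaling, a ligand on 1 cell binds a receptor on its neighbor, the receptor is cut, and its inner part enters the nucleus and joins the DNA-binding protein RBPJ to turn on genes such as Hes1, Hes5 and Hey1. The Hes and Hey proteins are repressors that hold back neuronal differentiation. Hes6 differs from them in that it can inhibit Hes1. In the cerebellum, Notch genes are known from cerebellar granule neuron progenitors (CGNPs), from Bergmann glia and from vessels, and Hes1 is also known as a gene that Hedgehog signaling can switch on without a Notch ligand.

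Single cells were measured by Drop-seq, in which each captured mRNA molecule is counted once as a unique molecular identifier (UMI). The WT group was 5 untreated cerebella of C57BL/6 mice at day 7 after birth. The Vehicle and Vismodegib groups were medulloblastomas of M-Smo mice on the same background, 5 tumors each, taken at day 15 after 3 daily doses of vehicle or of vismodegib at 75 mg per kg. Both tumor groups carry Math1-Cre and SmoM2/EYFPloxP/loxP, so constitutively active SMO is made in cells of the Math1 lineage. Vessels and microglia lie outside that lineage and do not make it by that route. Vismodegib inhibits SMO, the transducer of Sonic Hedgehog (SHH) signaling. WT cerebella and tumors differed in age, genotype and capture device together. By the study's methods, cultured human cells were added to the tumor captures only, and the tumor reads went through a further alignment. These differences cannot be told apart.

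Total counts ran from 2310474 to 17708677 UMIs per animal, and 805 to 8103 cells per animal passed the quality criteria, with medians of 1082.5 to 2597 UMIs per cell. No pair of the 15 libraries shared more than 13 cell barcodes. Cells were grouped by markers that did not include these genes. Most were CGNP-like, with 5050 cells in WT, 16882 in Vehicle and 10676 in Vismodegib, and were placed in 4 stages named after the nodes of the study. Cells of Node A-like type carried markers of S, G2 and M phase, and those of Node B-like type markers of G1 and the start of DNA replication. Node C-like cells carried genes of young neurons, and Node D-like cells those of granule neurons late in their differentiation. Levels are in CPM, the UMIs of a gene in each 1000000 UMIs of the summed cells of a class in 1 animal. The tumors were also taken in 2 sets that an earlier look at these data had given, with Vehicle replicates 1 and 3 and Vismodegib replicates 1, 2 and 3 as set 1 and the other 5 tumors as set 2. Within each treatment group the tumors of set 1 lay higher on the second principal component of the CGNP-like sums (21.9 and 23.4 against -8.74 to -2.71 in Vehicle, and -3.75 to 18.9 against -26 and -22.6 in Vismodegib). Across the treatment groups the sets overlapped on it, since Vismodegib replicate 3 of set 1 lay below Vehicle replicate 2 of set 2. The sets came from these same data, so their lying apart here is not support for them. Set 1 held the samples with serial numbers 4, 5, 7, 9 and 10, and set 2 those with 6, 12, 13, 14 and 15. No label names such a batch. For the 6 members called between the tumor groups, the difference in CGNP-like cells is also given within the sets. A set held 2 or 3 tumors of each treatment group, so 1 group in each set was under the minimum of 3 animals used elsewhere. Whether a difference varied between the sets was not tested.

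Short sequences, sites of the Notch pathway itself (RBPJ and Hes) and of SHH signaling (GLI), were searched for in the promoters of these genes. They were GTGGGAA, which RBPJ binds, CACGCG, which Hes and Hey proteins bind, and GGGTGGTC, which GLI factors bind. None of the 3 overlaps another. The promoters came from RefSeq on GRCm38 and run from 250 bases before to 50 after the start of transcription, and both strands were searched. The table held 10 promoters of 8 of the genes, and none for Hes1 and Hey1. Hes5 was the gene with the RBPJ letters, present in 6.38% of 32851 promoters, and it held them 2 times. They stand in capitals, with the first copy on the opposite strand, in the 250 bases at chr4:154960673-154960922, plus strand.

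Hes5: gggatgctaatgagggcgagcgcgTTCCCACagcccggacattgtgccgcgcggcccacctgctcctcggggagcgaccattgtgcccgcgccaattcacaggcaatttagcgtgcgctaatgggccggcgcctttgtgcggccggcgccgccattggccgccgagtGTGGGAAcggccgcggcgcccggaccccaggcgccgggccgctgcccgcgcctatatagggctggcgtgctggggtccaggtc

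The Hes letters, in 9.27% of all promoters, were present in Jag1, Notch2 and Dll1. They stand in capitals within 30 bases at chr2:137116674-137116703 (minus strand), chr3:98013484-98013513 (plus strand) and chr17:15376983-15377012 (minus strand), starting 171, 42 and 68 bases before the start of transcription. Jag1 held a further copy. The GLI letters, in 0.807% of all promoters, were in none of the 10. Such matches are descriptions of letters, not of bound sites.

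Jag1: gagccaggcgggCACGCGtcattgtgttac
Notch2: gaggcggaaggaCACGCGggccgcccagcc
Dll1: cttaatgacagcCACGCGaacgacacacac

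Hes1, whose product represses proneural genes, was the member with the largest difference between the tumor groups. In CGNP-like cells it was low in WT, high in every vehicle-treated tumor and low again in every vismodegib-treated tumor. Its gene lies at chr16:30064384-30067796 on the plus strand of GRCm38. The WT levels were 4.99, 5.81, 6.64, 4.92 and 2.67 CPM. The Vehicle levels were 203, 139, 132, 98.9 and 132 CPM. The Vismodegib levels were 7.47, 6.50, 9.65, 11.1 and 6.08 CPM. No vehicle-treated tumor overlapped either other group. The means were 5.01 ± 1.48, 141 ± 37.9 and 8.16 ± 2.15 CPM (SD, n = 5 each), from 47, 4736 and 193 UMIs. In edgeR's quasi-likelihood test on these sums, with p-values adjusted over all genes by Benjamini-Hochberg, Hes1 was lower in Vismodegib by 4.07 on the log2 scale (log2 fold change -4.07 ± 0.23 SE, 95% interval -4.57 to -3.58, adjusted p = 1.11e-06). It had the smallest p of the 12341 genes tested and ranked 7 by size among the 593 that were lower. Hes1 was higher in Vehicle than in WT by 4.73 ± 0.24 (SE, adjusted p = 8.28e-09). Within set 1 and set 2 alone the treatment difference was -4.42 (adjusted p = 1.97e-05) and -3.82 (adjusted p = 0.000172).

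**Figure D1:**
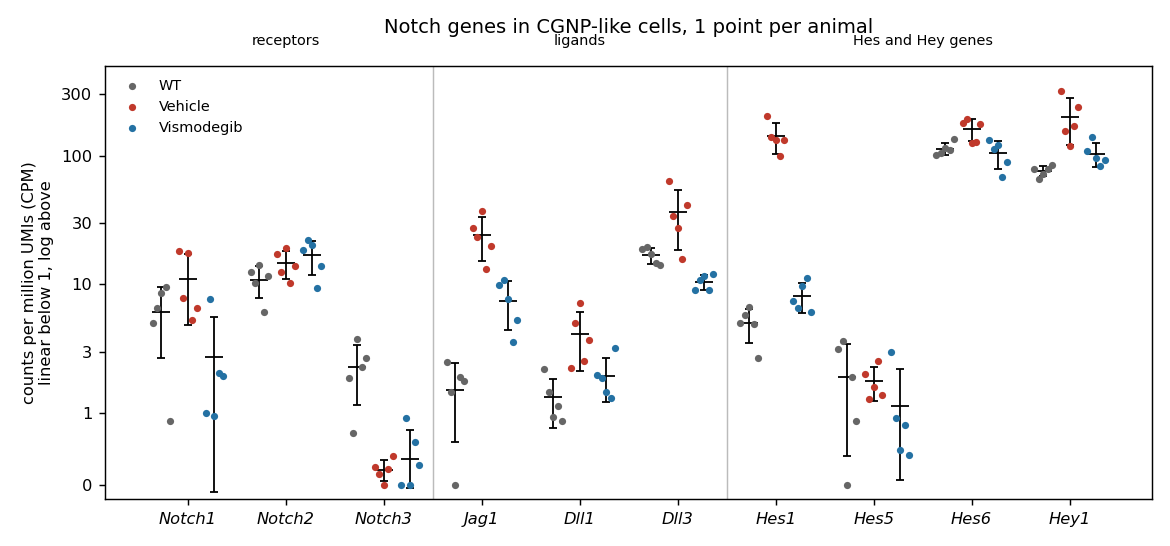
Levels of the 10 genes (horizontal axis) in CGNP-like cells in CPM (vertical axis, linear below 1 and logarithmic above). Each point is 1 animal and the bars give mean and SD (n = 5 per group). The Vehicle points of Hes1 (98.9 to 203 CPM) and Jag1 (13.2 to 37.3 CPM) lie above all their Vismodegib and WT points.

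Of the 8 members that passed the filter on low counts, 6 were lower in Vismodegib than in Vehicle and none was higher, against 4.81% of all genes called lower, 8.78% called higher and 13.6% called in either direction. Hes5 and Notch3 did not pass it. Between Vehicle and WT, 5 of the 7 that passed were higher in Vehicle, against 21.9% of all genes called higher and 44.7% called in either direction. Dll1, Hes5 and Notch3 did not pass there. The median log2 fold change of all genes was 0.006 and 0.062 in these comparisons. The filter can be passed through 1 group alone, so for sparse genes it is not blind to direction. Notch1 had a mean of 2.73 CPM in Vismodegib and Jag1 one of 1.52 CPM in WT, and both were higher in Vehicle. Since the members were also chosen with earlier results of these data known, these counts describe the list and do not test it.

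Jag1, a ligand (chr2:137081456-137116644, minus strand), had the pattern nearest to that of Hes1 among the members in CGNP-like cells. Levels were 27.3, 23.3, 37.3, 13.2 and 19.7 CPM in Vehicle and 9.96, 10.8, 7.72, 3.59 and 5.25 CPM in Vismodegib, so the groups did not overlap. WT cerebella held 0 to 2.5 CPM. Jag1 was lower in Vismodegib by 1.75 on the log2 scale (-1.75 ± 0.33 SE, adjusted p = 0.00278) and higher in Vehicle than in WT by 3.69 ± 0.40 (adjusted p = 5.86e-06). Both sets gave the treatment difference, at -1.75 (adjusted p = 0.00509) and -2.09 (adjusted p = 0.00172).

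Dll3, a divergent ligand that mostly stays inside the cell and can block Notch in the cell that makes it (chr7:28293553-28302238, minus strand), was at 63.9, 34.0, 27.2, 15.7 and 41.1 CPM in Vehicle and at 8.97, 10.8, 11.6, 9.09 and 12.03 CPM in Vismodegib. The groups did not overlap, although the Vehicle values spread over a wide range. In WT it was at 16.9 ± 2.37 CPM, above every vismodegib-treated tumor. The differences were -1.77 ± 0.29 for treatment (adjusted p = 0.00144) and 1.02 ± 0.29 for Vehicle against WT (adjusted p = 0.00994). The within-set treatment differences were -2.10 (adjusted p = 0.00528) and -1.54 (adjusted p = 0.0138). Dll1, a canonical activating ligand (chr17:15367354-15376872, minus strand), was sparse, at 1.32 ± 0.530, 4.14 ± 2.00 and 1.96 ± 0.738 CPM in WT, Vehicle and Vismodegib. Its treatment difference did not pass the test (-1.02, 95% interval -1.87 to -0.17, adjusted p = 0.114).

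Among the receptors, Notch1 (chr2:26457903-26516663, minus strand) was at 18.05, 7.90, 17.5, 5.32 and 6.56 CPM in Vehicle and at 0.996, 7.74, 0.965, 2.03 and 1.94 CPM in Vismodegib. Vismodegib replicate 2 lay within the Vehicle range, and the other 4 lay below it. Notch1 was lower by 1.95 on the log2 scale (-1.95 ± 0.52 SE, adjusted p = 0.0233), a call lost when Vismodegib replicate 3, 4 or 5 was left out (adjusted p = 0.0515 to 0.0680). Within set 1 and set 2 the difference was -2.28 (adjusted p = 0.0485) and -1.73 (adjusted p = 0.00958). In WT it was at 6.09 ± 3.39 CPM, and Vehicle against WT did not pass the test (0.70, adjusted p = 0.217). Notch2 (chr3:98013527-98150361, plus strand) was at 10.9 ± 3.08, 14.6 ± 3.66 and 16.8 ± 5.09 CPM in WT, Vehicle and Vismodegib. Neither comparison passed the test (0.37, adjusted p = 0.281, and 0.18, 95% interval -0.35 to 0.71, adjusted p = 0.696). Notch3, a receptor of mural cells (chr17:32120820-32166852, minus strand), was close to 0 in the tumors, at 0.201 ± 0.146 and 0.361 ± 0.402 CPM, and at 2.27 ± 1.12 CPM in WT.

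Hey1, a repressor related to the Hes genes (chr3:8663359-8667256, minus strand), was at 320, 155, 120, 171 and 237 CPM in Vehicle and at 108, 138, 96.5, 82.5 and 92.2 CPM in Vismodegib. The ranges overlapped at Vehicle replicate 3 and Vismodegib replicate 2. It was lower in Vismodegib by 0.95 on the log2 scale (-0.95 ± 0.23 SE, adjusted p = 0.0126), by -0.93 within set 1, where it did not pass (adjusted p = 0.15), and by -1.11 within set 2 (adjusted p = 0.00406). Against the 76.1 ± 7.29 CPM of WT, Vehicle was higher by 1.31 ± 0.21 (adjusted p = 0.000166).

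Hes6 (chr1:91411483-91414038, minus strand) was at 180, 192, 126, 129 and 175 CPM in Vehicle and at 132, 114, 122, 68.0 and 90.02 CPM in Vismodegib, with overlapping ranges. The difference was -0.62 ± 0.18 (adjusted p = 0.0340). It was called in set 2 alone, at -1.07 (adjusted p = 0.0038), and not in set 1 alone, at -0.31 (adjusted p = 0.555). The call was also lost without Vehicle replicate 1, 2 or 5 or without Vismodegib replicate 4 or 5 (adjusted p = 0.0546 to 0.0846). Vehicle exceeded the 113 ± 12.9 CPM of WT by 0.43 ± 0.15 (adjusted p = 0.0284), a call lost without Vehicle replicate 2 or 5 or WT replicate 1, 2 or 4 (adjusted p = 0.0531 to 0.0733). Hes5, a Notch target of glia (chr4:154960923-154962371, plus strand), was at means of 1.9, 1.8 and 1.1 CPM in WT, Vehicle and Vismodegib.

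The 4 genes of the SHH pathway taken for comparison did not all move with Hes1. Hhip, a target that binds and restrains SHH, went from 38.6, 40.7, 36.0, 27.9 and 46.8 CPM in Vehicle to 3.99, 5.57, 7.23, 5.26 and 7.19 CPM in Vismodegib (-2.67, adjusted p = 1.65e-05). Ptch1, the SHH receptor and a target, was lower by 1.46 on the log2 scale (-1.46, adjusted p = 0.000762), and Sfrp1, a secreted Wnt antagonist, was lower too (-0.98, adjusted p = 0.00123). Gli1, a transcription factor and target of the pathway, gave -0.49 (adjusted p = 0.364), with 108, 72.3, 86.2, 48.7 and 55.7 CPM in Vehicle and 69.7, 94.7, 46.8, 27.9 and 27.5 CPM in Vismodegib.

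**Figure D2:**
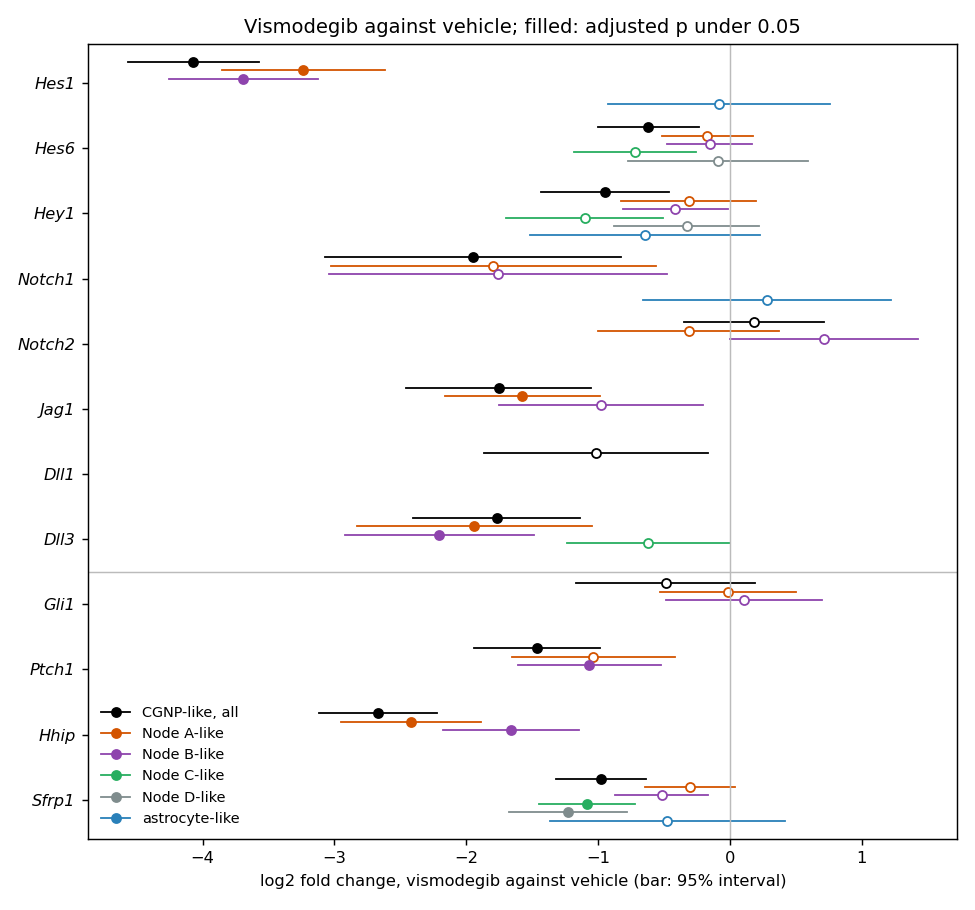
Log2 fold changes of Vismodegib against Vehicle (horizontal axis) for the 8 tested Notch genes and, under the gray line, 4 SHH genes, in all CGNP-like cells, in each stage and in astrocyte-like cells, where the gene could be tested. Points are edgeR estimates, bars 95% intervals, and filled points passed the test. Hes1 lies farthest from 0 in CGNP-like cells, at -4.07, and at -0.08 in astrocyte-like cells.

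Hes1 was compared with each other gene in the same cells by the log2 ratio of the 2 levels per tumor, with 5 CPM added to each. The ratio of Hes1 to each of the 7 other tested members was lower in Vismodegib, by -2.14 for Dll3, -2.24 for Jag1, -2.42 for Notch1, -2.59 for Hey1, -2.85 for Hes6, -3.08 for Dll1 and -3.59 for Notch2. For the SHH genes the differences were -1.47 for Hhip, -2.42 for Ptch1, -2.48 for Sfrp1 and -2.92 for Gli1. Each had p = 0.00794 in the exact permutation test (2-sided, n = 5 against 5), the smallest that the design allows, and an adjusted p of 0.00795. The ratio was lower in Vismodegib for 12339 of the 12340 other genes and passed the test for 12332 of them (99.9%), so these ratios describe Hes1, which is in all of them, rather than a property of the Notch genes.

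The share of Node stages differed between groups, so each stage was looked at alone. Node A-like cells held 113 to 227 CPM of Hes1 in Vehicle and 5.08 to 23.8 CPM in Vismodegib. In Node B-like cells the Vehicle levels were 261, 219, 196, 154 and 188 CPM and the Vismodegib levels 10.01, 6.53, 21.6, 22.8 and 16.01 CPM. Both stages kept the groups apart by a wide margin. Hes1 was lower by -3.24 ± 0.29 in Node A-like cells (adjusted p = 1.89e-05) and by -3.69 ± 0.27 in Node B-like cells (adjusted p = 5.33e-06), where 1.51% and 2.04% of all genes were called lower. In Node C-like cells, which were too sparse for the test, Vehicle had 18.9 ± 10.5 and Vismodegib 1.5 ± 1.58 CPM, against 6.49 ± 2.60 CPM in WT. Node D-like cells had 21.2 ± 18.8, 4.11 ± 1.78 and 9.89 ± 6.84 CPM in Vehicle, Vismodegib and WT, with overlapping ranges. The Vehicle means of both stages were no higher than that of microglia-like cells, which had 24.7 CPM in Vehicle and 4.26 CPM in Vismodegib. Whether free RNA from other tumor cells is part of the values in Node C-like and Node D-like cells was not tested.

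Dll3 was the other member called in both cycling stages, by -1.94 in Node A-like (adjusted p = 0.0198) and by -2.20 in Node B-like cells (adjusted p = 0.00183). In Node A-like cells its call was lost without Vehicle replicate 5 or Vismodegib replicate 3, 4 or 5 (adjusted p = 0.0505 to 0.0725). Jag1 was called in Node A-like cells, with 39.8 ± 14.8 against 13.7 ± 2.81 CPM (-1.57, adjusted p = 0.00471), and did not pass in Node B-like cells (-0.98, adjusted p = 0.183). Notch1 gave -1.80 and -1.76 in these stages without passing (adjusted p = 0.165 and 0.144). Hey1 gave -0.31 and -0.42, and Hes6 -0.17 and -0.15, and neither passed in any of the 4 stages. In Node C-like cells Hey1 gave -1.10 (adjusted p = 0.0924), where 0.584% of all genes were called lower, and in Node D-like cells -0.33, where 0.129% were.

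A mean over the 4 stages with equal weight was therefore computed for each animal, and tested by exact permutation. Hes1 was at 8.57 CPM in Vismodegib and 96.3 CPM in Vehicle, and Dll3 at 11.3 and 30.2 CPM, each with no overlap of groups (exact permutation p = 0.00794, the smallest possible, n = 5 each). Jag1 was at 7.18 and 18.2 CPM (exact p = 0.0159). Notch1 (2.86 and 7.93 CPM, exact p = 0.0794), Hey1 (106 and 157 CPM, exact p = 0.0952) and Hes6 (103 and 120 CPM, exact p = 0.151) did not pass. These p-values are not adjusted. Of all genes, 10.5% had such a p under 0.05 and 3.42% had groups that did not overlap. Of the SHH genes, Hhip (6.02 and 27.6 CPM), Ptch1 (7.21 and 14.7 CPM) and Sfrp1 (1129 and 1696 CPM) had groups that did not overlap (exact p = 0.00794 each), and Gli1 was at 50.9 and 51.1 CPM (exact p = 1). Between Vehicle and WT, 48.9% of all genes had such a p under 0.05 and 30% had groups that did not overlap. Hes1 (96.3 and 5.97 CPM), Jag1 (18.2 and 1.60 CPM) and Hey1 (157 and 71.2 CPM) were higher in Vehicle and Notch3 was lower (0.176 and 2.51 CPM), each with an exact p of 0.00794. Dll3 was at 30.2 and 17.03 CPM there (exact p = 0.0397).

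Against WT, Hes1 in Vehicle was higher by 5.53 in Node A-like (adjusted p = 1.75e-08) and by 5.28 in Node B-like cells (adjusted p = 4.22e-10), where 17.1% and 16.5% of all genes were called higher. All WT cells of these stages together held 9 and 11 UMIs of Hes1. Jag1 was higher by 4.49 and 3.00 there, but WT held 5 and 6 UMIs of it, too few to pass the filter on low counts without Vehicle. In Node B-like cells Jag1 could be tested in only 6 of the refits with 1 animal left out. Node B-like cells also had more Hey1 (0.86, adjusted p = 0.00139) and Dll3 (1.09, adjusted p = 0.0284), the latter lost without Vehicle replicate 1 or 5 or WT replicate 3, 4 or 5 (adjusted p = 0.0501 to 0.101), and Node A-like cells more Notch2 (1.17, adjusted p = 0.0134). In Node C-like cells, where 15.4% were called higher, Hey1 was at 174 ± 99.5 CPM in Vehicle and 32.4 ± 3.92 CPM in WT (2.25, adjusted p = 2.32e-05).

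The stages are made of clusters that the treatment filled differently. Cluster 0 held 42.65% of the Node B-like cells of Vehicle and 18.07% of those of Vismodegib, and had the most Hes1 among the clusters of the 4 stages, at 361 ± 50.3 CPM in Vehicle (306 to 419) and 34.3 ± 30 CPM in Vismodegib (0 to 74.7). The groups did not overlap in any of the 5 clusters of Node A and Node B. Clusters 1 and 3 of Node B had 134 ± 27.9 and 105 ± 41.6 CPM in Vehicle against 12.5 ± 4.07 and 13.6 ± 7.46 CPM in Vismodegib. Clusters 2 and 9 of Node A had 158 ± 46.5 and 87.2 ± 11.6 CPM against 16.4 ± 9.12 and 5.88 ± 7.49 CPM. Jag1 was at 34.3 ± 17.6, 23.5 ± 7.51 and 11.5 ± 7.43 CPM in clusters 0, 1 and 3 of Vehicle, against 3.99 ± 6.35 (3 UMIs), 19.1 ± 8.80 and 4.81 ± 3.97 CPM in Vismodegib. In clusters 2 and 9 it was at 43.3 ± 19.7 and 27.7 ± 8.68 CPM against 12.6 ± 3.50 and 13.4 ± 6.998 CPM, so the mean differed least in cluster 1. Dll3 was at 69.3, 30.02 and 45.2 CPM in clusters 0, 1 and 3 and at 26.9 and 16.2 CPM in clusters 2 and 9 of Vehicle, against 6.74 (5 UMIs), 8.95, 11.5, 7.31 and 3.00 CPM in Vismodegib. The clusters of Node C and Node D were also filled unequally. Cluster 4 held 67.5% of Node C-like cells in Vehicle and 37.32% in Vismodegib, and cluster 7 held 8.994% and 44.33% of Node D-like cells, while cluster 6 held 41.78% and 40.91% of them. A cluster left unnamed, with genes of the start of S phase in the lead, had 36.7 ± 7.84 CPM of Hes1 in Vehicle and 0.942 ± 2.11 CPM in Vismodegib.

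Hes1 was not low in all cells of vismodegib-treated tumors. Astrocyte-like cells, which include Bergmann glia, had 308 ± 139 CPM in WT (n = 5), 307 ± 165 CPM in Vehicle (n = 4, since 1 tumor had under 10 such cells) and 290 ± 137 CPM in Vismodegib (n = 5). The 5 Vismodegib values of 193, 479, 361, 284 and 133 CPM overlapped the Vehicle values of 288, 543, 225 and 171 CPM, with 1 of them below the lowest. The difference of -0.08 did not pass the test (95% interval -0.92 to 0.76, adjusted p = 0.969), where 0.994% of all genes were called in either direction. Nor did Vehicle against WT (-0.04, adjusted p = 0.958), where 26.9% were called.

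The treatment difference was larger in CGNP-like than in astrocyte-like cells by 4.18 on the log2 scale for Hes1 (± 0.34 SE, 95% interval 3.52 to 4.85) in an edgeR interaction with the tumor as a block, where 2.27% of all genes were called (adjusted p = 7.56e-31, and 2.7e-07 without the block). With 1 value per tumor, the log2 ratio of the astrocyte-like to the CGNP-like level was also taken, with 5 CPM added to each level. It was 4.37 ± 0.68 in Vismodegib (n = 5) and 0.98 ± 0.72 in Vehicle (n = 4), an exact permutation p of 0.0159, the smallest for this design. The added 5 CPM makes the ratio smaller where the CGNP-like level is low, as in Vismodegib. Notch1 gave 2.21 ± 0.45 with the block (adjusted p = 0.000169) and was not called without it (adjusted p = 0.0725). The edgeR interaction fits held 5 tumors per group. They included the vehicle-treated tumor with under 10 astrocyte-like cells.

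**Figure D3:**
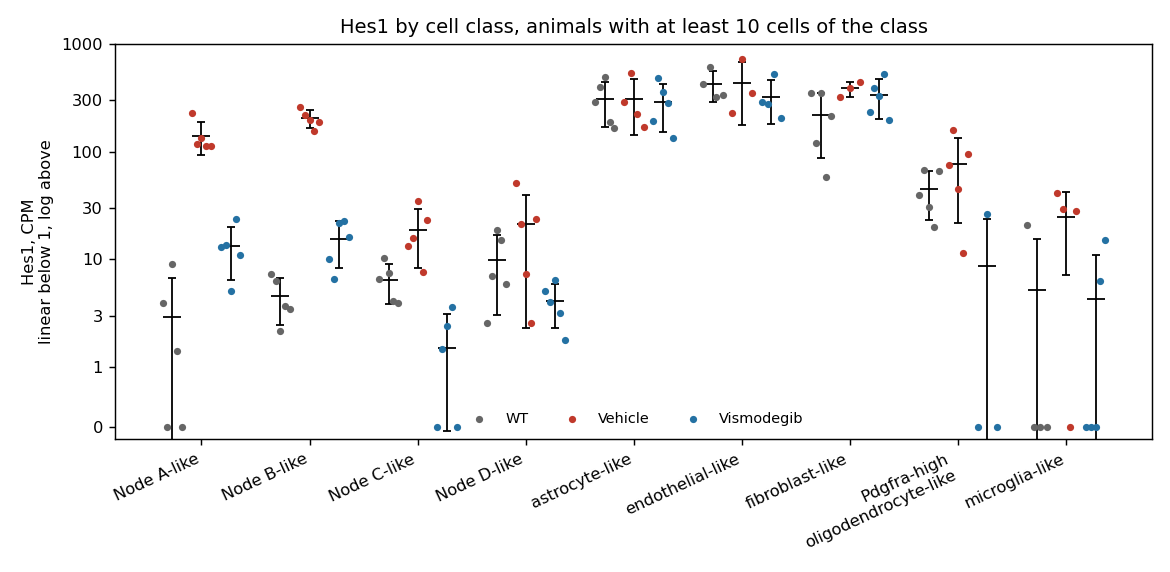
Hes1 in CPM (vertical axis, linear below 1 and logarithmic above) by class, with 1 point for each animal with at least 10 cells of the class and bars for mean and SD. In Node A-like and Node B-like cells every Vehicle point lies above all others, and in astrocyte-like cells the groups lie on each other, with means of 308, 307 and 290 CPM in WT, Vehicle and Vismodegib.

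In the vessel wall, endothelial-like cells had 425 ± 136 (n = 4), 432 ± 255 (n = 3) and 325 ± 142 CPM (n = 4) of Hes1 in WT, Vehicle and Vismodegib, and fibroblast-like cells 218 ± 132 (n = 5), 386 ± 61.1 (n = 3) and 336 ± 132 CPM (n = 5). Treatment gave -0.39 (adjusted p = 0.922) and -0.07 (adjusted p = 0.949) by edgeR, where 0% and 2.75% of all genes were called. Few cells stood behind these values, 56 to 60 endothelial-like and 91 to 158 fibroblast-like cells a group. Mural-like cells, with 20 to 23 cells a group, had 508, 380 and 768 CPM when pooled. In the order of Hes1 levels in Vehicle, endothelial-like, fibroblast-like and astrocyte-like cells came before Node B-like and Node A-like cells, and the ranges of neighbors in that order overlapped.

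Oligodendrocyte-like cells had 23.7 ± 14.8 CPM of Hes1 in WT (n = 5), 56.2 ± 43.2 CPM in Vehicle (n = 5) and 2.57 ± 5.15 CPM in Vismodegib (n = 4, 2 UMIs in all), too few for the test. The make-up of this class differed between the groups, since Pdgfra-high cells were 150 of 244 in WT, 295 of 416 in Vehicle and 58 of 154 in Vismodegib. In Pdgfra-high cells Hes1 was at 44.8 ± 21.5 (n = 5), 77.1 ± 55.5 (n = 5) and 8.76 ± 15.2 CPM (n = 3) in WT, Vehicle and Vismodegib, from 12, 47 and 2 UMIs. The Pdgfra-low cells had 0, 5 and 0 UMIs of Hes1. Microglia-like cells, which should lack the CGNP genes, had 5.17, 24.7 and 4.26 CPM of Hes1. Sfrp1, a gene of the tumor cells, went the same way in them, with 55.1, 333 and 117 CPM, and in oligodendrocyte-like cells, with 129, 274 and 67.0 CPM. The part of free RNA from tumor cells in these Hes1 values was not tested.

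The share of cells with a UMI of Hes1 was compared with each cell thinned to 500 UMIs. It was 5.09 ± 1.92% of CGNP-like cells in Vehicle, 0.374 ± 0.133% in Vismodegib and 0.294 ± 0.221% in WT (n = 5 each, exact permutation p = 0.00794 for both comparisons, the smallest possible). In Vehicle the tumors had 7.65, 5.40, 4.55, 2.33 and 5.54%, all above the 0.234 to 0.550% of Vismodegib. Microglia-like cells, with a median of 2110.5 UMIs in Vehicle before thinning beside 1551 in Node B-like cells, had 2.78 ± 2.41% in Vehicle (n = 4), 0% in Vismodegib and 0% in WT. Vehicle replicate 4 lay below that Vehicle mean and the other 4 tumors above it. Without thinning, the shares in CGNP-like cells were 14.3, 1.35 and 0.849% in Vehicle, Vismodegib and WT, and 5.57, 0.932 and 1.19% in microglia-like cells. The shares of 4 other members moved as their levels did, at 1.03 and 0.211% for Jag1, 1.76 and 0.396% for Dll3, 7.20 and 4.28% for Hes6 and 8.78 and 4.18% for Hey1 in Vehicle and Vismodegib (exact p = 0.00794, 0.0159, 0.00794 and 0.0159). For Dll1, whose level was not called, they were 0.209 and 0.0898% (exact p = 0.0159). For Notch2 they were 0.616 and 0.812%. These p-values are not adjusted and have no share over all genes beside them. The shares pool stages that the groups filled unequally.

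Vehicle-treated tumors had 930 CGNP-like cells with a Hes1 UMI at 500 UMIs, enough to ask which members the same cells held. Within stages, the odds of a Hes6 UMI were higher in Hes1+ cells in 5 of 5 tumors (median odds ratio 1.66, range 1.01 to 1.86, 121 cells with both). Those of Hhip were higher in 5 of 5 (1.77) at this depth, those of Gli1 in 3 of 5 (1.26), of Ptch1 in 3 of 5 (1.037) and of Sfrp1 in 3 of 5 (1.01). Notch1 was above 1 in 4 of 5 tumors (2.49), but only 13 cells held both, Jag1 in 4 of 5 (1.28) and Notch2 in 3 of 5 (1.127). Hey1 was below 1 in 4 of 5 (0.74), and Dll3 above 1 in 2 of 5 (0.97). With cells thinned to 1000 UMIs instead, which gave 1310 Hes1+ cells, Hes6 was above 1 in 5 of 5 tumors (1.21) and Hey1 below 1 in 5 of 5 (0.83). Dll3 turned, to above 1 in 4 of 5 (1.39, 75 cells with both), Jag1 had a median of 2.52 and was above 1 in 4 of 5 (57 cells with both), and Notch2 was above 1 in 4 of 5 (1.70). Of the SHH genes, Hhip was above 1 in 4 of 5 (2.45, lowest 0.85), Ptch1 in 5 of 5 (1.25), Gli1 in 2 of 5 (0.85) and Sfrp1 in 1 of 5 (0.88). Notch1 was above 1 in 4 of 5 (2.60, 27 cells with both). The clusters within a stage were not kept apart in these odds. Of the Node B-like clusters of Vehicle, cluster 0 had the most Hes1 (361 CPM) and also the most Hes6 (253 CPM). The part of such mixing in the odds ratios was not tested. These are descriptions of sparse counts with no test, and at 500 UMIs Vismodegib and WT had 35 and 15 Hes1+ cells, too few to describe.

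**Figure D4:**
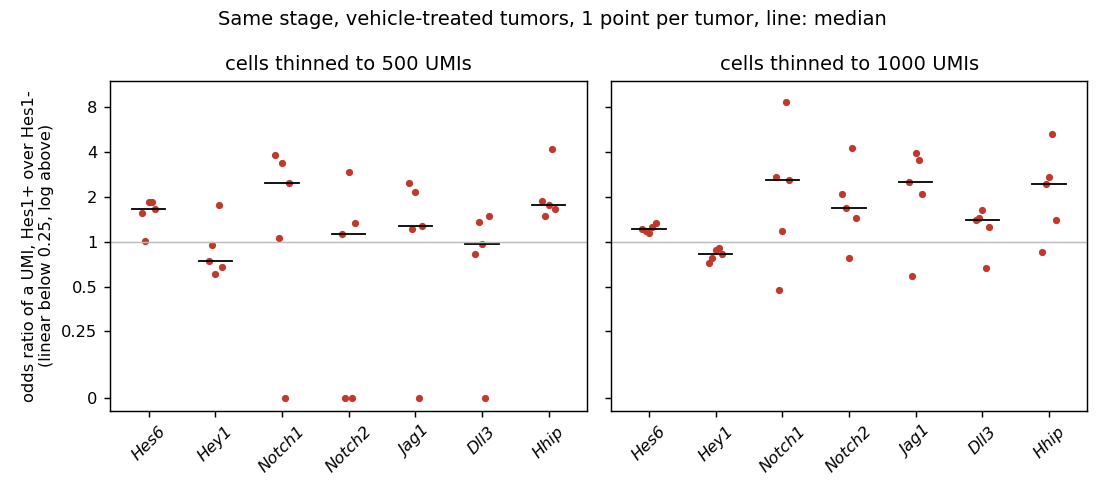
Odds ratio (vertical axis, linear below 0.25 and logarithmic above) of finding a UMI of each gene in Hes1+ against Hes1- CGNP-like cells of the same stage, with 1 point for each vehicle-treated tumor and a line at the median, for cells thinned to 500 (left) and 1000 UMIs (right). At 500 UMIs the points of Hes6 and Hhip are above 1 in all 5 tumors, with medians of 1.66 and 1.77.

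Outside the CGNP lineage, each gene had classes of its own. Hes5 was high in astrocyte-like cells, at 329 ± 211, 370 ± 145 and 169 ± 67.4 CPM in WT, Vehicle and Vismodegib, and was not called by treatment (-1.27, adjusted p = 0.0757). It had 0 UMIs in the 59, 56 and 60 endothelial-like cells, which at 3 UMIs a group allows up to 19.3, 21.2 and 13.2 CPM. Notch1 was at 169 ± 43.3, 168 ± 146 and 143 ± 79.5 CPM in astrocyte-like cells and at 168 ± 32.3, 209 ± 89.1 and 179 ± 76.3 CPM in endothelial-like cells. Notch3 was at 545, 127 and 377 CPM in pooled mural-like cells of WT, Vehicle and Vismodegib, from 15, 5 and 25 UMIs, and at 71.0 ± 18.6, 34.6 ± 25.8 and 36.4 ± 13.5 CPM in astrocyte-like cells. Notch2 was spread over fibroblast-like (84.9, 29.0 and 122 CPM), microglia-like (44.0, 27.6 and 54.0 CPM) and astrocyte-like cells (47.2, 46.5 and 52.6 CPM).

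Of the ligands, Jag1 was also present in fibroblast-like cells, at 58.0, 155 and 104 CPM, and in endothelial-like cells, at 15.7, 79.2 and 101 CPM. Dll3 was highest in Pdgfra-high oligodendrocyte-like cells, the precursors of that lineage by this marker, at 124 ± 62.4, 129 ± 64.4 and 143 ± 24.9 CPM. Dll1 was at 70.3 ± 31.3, 16.9 ± 12.3 and 21.03 ± 36.4 CPM there. Hes6 was at 211 ± 74.5 CPM in the GABAergic progenitor-like cells of WT, beside 29.0 ± 17.9 CPM of Hes1 and 42.2 ± 28.0 CPM of Hes5. Hey1 in astrocyte-like cells was higher in Vehicle than in WT (179 and 58.2 CPM, 1.68, adjusted p = 0.00268, where 13.2% of all genes were called higher), and the call was lost without Vehicle replicate 5 (1.57, adjusted p = 0.0530). Sfrp1, a gene of the tumor cells, was higher in the same cells too (210 and 95.3 CPM, adjusted p = 0.0217). The part of free RNA from tumor cells in the Hey1 value was not tested.

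**Figure D5:**
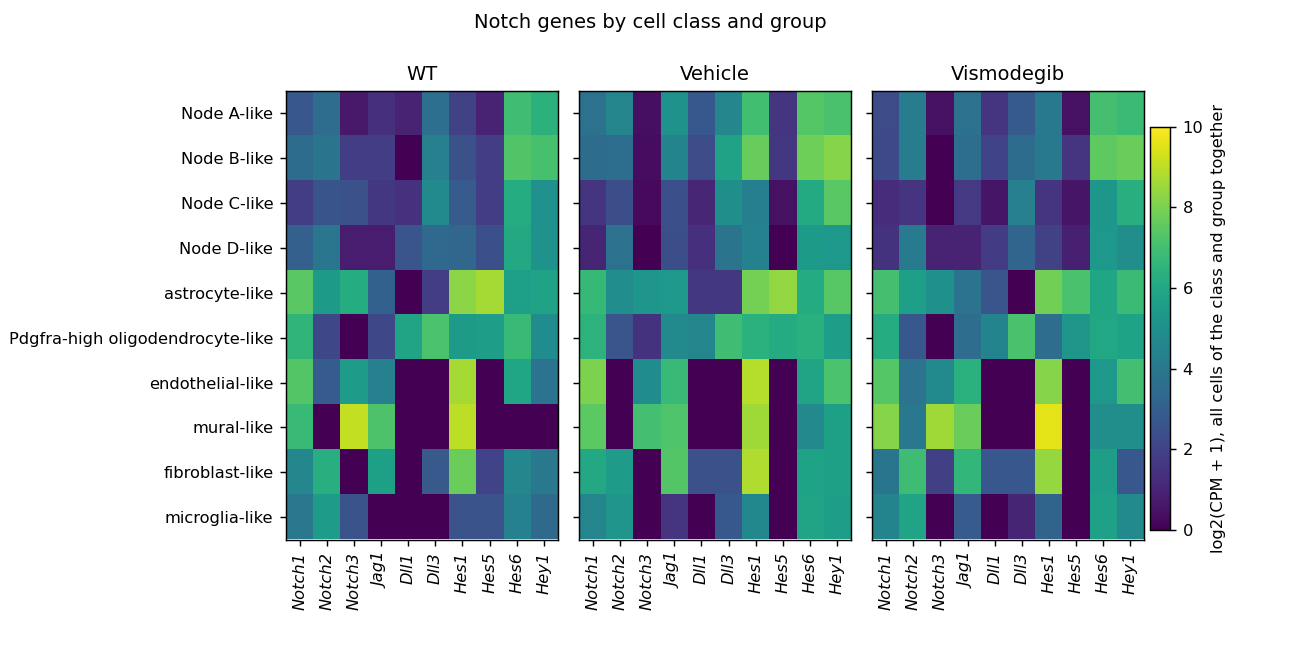
Level of each gene (columns) in each class (rows), with a panel for each group, colored by log2(CPM + 1) of all cells of the class and group together. Hes1 is high in the astrocyte-like and vascular classes of every group, and in Node A-like and Node B-like cells of Vehicle.

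Summed markers of other cell types in the CGNP-like cells were low. The 12 astrocyte markers summed to 451, 347 and 475 CPM in WT, Vehicle and Vismodegib, against 40205, 63174 and 64431 CPM in astrocyte-like cells. Endothelial markers summed to 45.2, 33.4 and 32.2 CPM and microglia markers to 34.5, 25.6 and 51.5 CPM.

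Patterns were compared over 34 profiles of a class in a group with at least 20 cells. Mural-like cells and the mixed astrocyte sub-cluster were not among them. The genes with a pattern most like that of Hes1 among 10215 were Sparcl1 (Pearson's r of log2 levels 0.897), Rhoj (0.891), Cyr61 (0.890), Ramp2 (0.868) and Nbl1 (0.865). Jag1 ranked 33 (0.808) and Notch1 ranked 34 (0.806). Notch3 (0.603), Notch2 (0.495), Hes5 (0.353), Hey1 (0.134), Hes6 (-0.036) and Dll3 (-0.278) were less like it. The profiles share libraries and cells of 1 lineage, so these values only describe the order.

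The pathway was also read through 52 further genes. In CGNP-like cells, 42 of them could be tested between Vismodegib and Vehicle, and 4 were higher and 5 lower, which is 21.43% beside the 13.6% of all genes, with a median log2 fold change of 0.04. The largest falls were in the fringe glycosyltransferases, which alter how receptors answer to ligands: Lfng went from 16.9 ± 7.78 to 3.47 ± 1.51 CPM (-2.33, adjusted p = 0.000762) and Mfng from 15.6 ± 10.3 to 3.33 ± 0.835 CPM (-2.23, adjusted p = 0.00194). The third, Rfng, was higher (0.56, adjusted p = 0.0493), as was the receptor protease Adam10 (0.56, adjusted p = 0.0279). Among the nuclear factors, the co-repressor Tle1 (-0.75, adjusted p = 0.00436) and the co-activator Maml2 (-0.90, adjusted p = 0.0389) were lower. Dner, a neuronal transmembrane ligand (0.90, adjusted p = 0.00691), and Id4, an inhibitor of differentiation (1.10, adjusted p = 0.0355), were higher, and none of the 12 genes of ligand and receptor traffic was called. These sums pool the 4 stages, and Node D-like cells were 1412 of 16882 in Vehicle and 4701 of 10676 in Vismodegib. The part of stage make-up in these differences was not tested. This list, too, was chosen with earlier results of these data known.

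Between Vehicle and WT, 41 of the 52 could be tested and 14 were higher and 3 lower, which is 41.46% beside the 44.7% of all genes. The 5 that rose most were Mib2 (1.58), Tle1 (1.48), Dtx1 (1.44), Notch4 (1.43) and Pofut1 (1.06). Psenen (-1.01), Dtx3 (-0.76) and Dner (-0.48) were lower. Lfng and Mfng were at 8.82 and 16.1 CPM in WT, above the Vismodegib levels of both. The stages were pooled here as well.

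Some of these genes overlap others. Hes5, Notch1, Notch3 and Dll1 each have a gene on the opposite strand, and Notch1 and Notch2 have short genes on the same strand within them. The sources used here do not say whether the counting used strand, so their counts may hold reads of those genes.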

How the data were processed

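Drop-seq cells from 15 mice were analysed, with 1 table per animal. The authors deposited raw UMI counts per gene and barcode, not normalized. Their processing notes name bcl2fastq 2.18, STAR 5.4b and Seurat 2.3.0 and the builds mm10 and hg19. Gene positions came from the GRCm38 annotation.

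A barcode was taken as a cell if it held 500 UMIs or more and 500 genes or more, and if neither of these nor its mitochondrial share exceeded the animal's median by over 5 SD. No doublet caller was run, and this upper limit was the only treatment of doublets. Tumor and WT cells were clustered separately (resolution 0.8) without the Notch and SHH genes described, and clusters were named from marker lists. The holding out of hemoglobin genes, the minimum mean log2 fold of 0.5, the re-clustering of vascular, oligodendrocyte-like and astrocyte-like cells and the limit of -1 for setting a sub-cluster aside were chosen after the first clusters had been seen. A mixed astrocyte sub-cluster was set aside by it (67 cells in Vehicle, 115 in Vismodegib).

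Counts were summed per animal and class and tested with edgeR 4.0.16 in R 4.3.3 (TMM, filterByExpr, quasi-likelihood test, Benjamini-Hochberg adjustment over all genes tested, calls at 0.05), with the groups compared alone in each fit. DESeq2 1.42.0 was an alternative. Levels and shares were compared by 2-sided exact permutation tests over animals, in Python 3.11.15 with numpy 2.4.6, scipy 1.17.1 and pandas 2.3.3. The scripts were tested on simulated data. The animal was the replicate throughout, and animal numbers were not used to pair the groups. All 10 members are named, with the called genes of the wider list (at most 5 per comparison and direction) and the 5 genes most like Hes1, except that 1 called gene of the wider list is not reported here. The members and lists were chosen with earlier results of these data known, and Hes1 is a gene the study itself names from them. Alternatives covered normalization, filters, class definitions, depth, tumor sets and leaving out each animal.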

Additional observations from a re-analysis of the deposited data

Results flagged for a closer look

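In Node A-like cells, Hes1 in Vehicle replicate 1 was at 227 CPM, far from the other 4 vehicle-treated tumors for a group of 5 (Dixon's test). Notch1 in CGNP-like cells of Vismodegib replicate 2, at 7.74 CPM, stood apart from the other 4 vismodegib-treated tumors in the same way. Both were found among 36 groups tested, of which chance alone gives about 1 in 20.

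The treatment difference of Hes1 differed between astrocyte-like and CGNP-like cells by 4.18 on the log2 scale, and that of Notch1 by 2.21, in the test of the difference itself. The value for Notch1 did not pass without the tumor as a block (adjusted p = 0.0725, edgeR).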

How the results depend on the processing

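Of 575 values computed under alternatives for 47 results, 526 kept their direction and their side of the threshold, 35 kept the direction but lost the call, 10 changed sign and 4 were counts that moved by over 1.5 times. With classes set by a marker score per cell, 3 members were called between Vehicle and WT (5 as reported). Genes called between the tumor groups numbered 478 in set 1 alone and 3319 in set 2 alone (1676 as reported), and between Vehicle and WT 3709 with sums thinned to a common total (5577 as reported). Hes1 in astrocyte-like cells, which was not called, changed sign between the tumor groups with no filter (0.050) and between -0.39 and 0.44 with 1 animal left out (0.44 without Vehicle replicate 2, 0.02 without Vismodegib replicate 1 and 0.16 without Vismodegib replicate 5). Between Vehicle and WT it ran from -0.56 to 0.32 (0.04 without Vehicle replicate 4, 0.32 without Vehicle replicate 5, 0.03 without WT replicate 2 and 0.18 without WT replicate 3). In endothelial-like cells Vehicle against WT gave -0.12 with no filter and -0.014 by DESeq2 (0.05 as reported). The causes were not tested. With 1 animal left out, 4 to 6 members were called between the tumor groups and 4 to 5 between Vehicle and WT, and Hes1 ran from -4.29 to -3.94 and from 4.60 to 4.83. The interaction ran from 3.98 to 4.56 for Hes1 and from 1.95 to 2.57 for Notch1, where no tumor block gave 2.36. The difference in the share of cells with Hes1 ran from -5.41 to -4.08 and from 4.16 to 5.49 percentage points, and with no thinning was -12.97 and 13.47.

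Lost calls were those of Hes6, Notch1, Hey1 and Dll3 and of the Notch1 interaction. Beyond those given above, Hes6 between the tumor groups was lost with score classes (adjusted p = 0.117) and with cells of at least 1000 UMIs (0.0829). Hes6 between Vehicle and WT was lost at a resolution of 1.2 (0.0672), with score classes (0.450), with cells of at least 1000 UMIs (0.0631) and with thinned sums (0.184). Dll3 between Vehicle and WT (0.0806) and Notch1 between the tumor groups (0.0803) were lost with score classes. Same-numbered animals had correlations of -0.313 to 0.388 between the tumor groups and of -0.3 to 0.0311 between Vehicle and WT. Of 5 tumors, 1 was closest to its own number. Same-numbered Vehicle and Vismodegib tumors had neighboring serial numbers (5 and 4, 6 and 7, 10 and 9, 13 and 12, 15 and 14). The study treated littermates. With 5 numbers, these correlations cannot show whether the tumors were paired. With a replicate block, Hes1 gave -4.05 and 4.73, 6 and 4 members were called (Hes6 against WT was lost, adjusted p = 0.0697), and 1647 and 4839 of all genes. Animals were not left out in turn for Node D-like, endothelial-like, fibroblast-like and oligodendrocyte-like cells, since 98 refits had been drawn elsewhere. In CGNP-like cells, Notch3 had 0 to 6 UMIs per animal, Hes5 0 to 21 and Dll1 1 to 56.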
